A study of Mus musculus with 3 samples.

Results

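The Notch2-high Kdm6b-high cells are 280 of the 3470 bone marrow Lin-Sca1+ckit+ (LSK) cells that the study kept, or 8.07% of them. LSK cells are the sorted fraction of mouse bone marrow that holds hematopoietic stem cells and multipotent progenitors. The 280 cells were selected on measured values: in each kept cell the unique molecular identifiers (UMIs, which count captured RNA molecules) of Notch2, Slc39a1, Kdm6b, Abhd2, Rpgrip1, Kmt2d and Rbm15 were summed, divided by all gene UMIs of that cell and multiplied by 10000. The 280 cells with the highest score were taken, and ties were to be broken by the order of the cells in the matrix. The other 3190 kept cells served for comparison. The cells came from 2 mice deficient in Helios, the transcription factor encoded by Ikzf2, and from 2 wild-type mice; the labels do not describe the allele, the age or the sex of the mice. LSK cells of each mouse carried their own hashtag antibody, 2500 cells per mouse were pooled, and RNA, 4 surface antibody tags (CD41, CD48, CD150 and CD135, which is Flt3) and hashtags were read in 1 droplet run. The mouse is therefore the replicate, with n = 2 per genotype, and no value here separates the run from the rest of the procedure.

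Notch2 is one of the Notch receptors, which are cleaved when a ligand on a neighbouring cell binds them and whose released intracellular domain joins Rbpj on DNA; in blood formation it is best known for marginal zone B cells and for progenitors in the marrow. Kdm6b removes methyl groups from lysine 27 of histone H3, a mark of repressed chromatin, and Kmt2d places methyl groups on lysine 4 at enhancers. Rbm15 brings the m6A RNA methyltransferase to its targets. Slc39a1 carries zinc into the cell, Abhd2 is a lipid hydrolase, and Rpgrip1 is a protein of the connecting cilium of photoreceptors.

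The sequence just before an annotated start is shown for 3 of the markers to set side by side stretches with and without GC boxes. The stretches are the 250 bases before a RefSeq start on build GRCm38.p6: chr3:98013288-98013537 on the plus strand for Notch2, chr15:98871206-98871455 on the minus strand for Kmt2d and chr3:107333290-107333539 on the minus strand for Rbm15. The Kmt2d and Rbm15 windows lie inside the annotated spans of these genes, which reach to 98874077 and 107334460. The starts used for these 2 genes are therefore internal. Each is written from 5′ to 3′ on the strand of the gene, and capitals mark GC boxes (GGGCGG on either strand) and CCAAT boxes (CCAAT on either strand).
Notch2: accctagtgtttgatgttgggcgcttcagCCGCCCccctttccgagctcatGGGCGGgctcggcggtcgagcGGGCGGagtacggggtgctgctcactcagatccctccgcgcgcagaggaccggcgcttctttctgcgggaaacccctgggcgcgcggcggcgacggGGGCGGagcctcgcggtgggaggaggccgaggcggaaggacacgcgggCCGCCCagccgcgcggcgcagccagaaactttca
Kmt2d: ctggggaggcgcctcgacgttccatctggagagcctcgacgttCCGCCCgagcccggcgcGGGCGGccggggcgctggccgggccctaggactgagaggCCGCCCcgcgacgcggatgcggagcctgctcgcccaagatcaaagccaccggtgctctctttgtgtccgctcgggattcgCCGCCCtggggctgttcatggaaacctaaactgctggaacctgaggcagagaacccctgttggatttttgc
Rbm15: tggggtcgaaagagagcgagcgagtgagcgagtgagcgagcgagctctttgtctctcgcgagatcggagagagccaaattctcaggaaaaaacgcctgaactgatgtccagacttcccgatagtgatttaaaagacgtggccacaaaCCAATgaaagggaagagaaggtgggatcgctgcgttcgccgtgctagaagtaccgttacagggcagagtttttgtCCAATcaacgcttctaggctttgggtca
Notch2 held 5 GC boxes and Kmt2d held 4, whereas Rbm15 held 0 GC boxes and 2 CCAAT boxes. RefSeq windows were matched for 6 of the 7 markers, with Kdm6b unmatched. A GC box lay in 4 of the 6 and a CCAAT box in 4 of the 6, beside 32.9% and 34.5% of the 27025 windows of the same length. The TATA box (TATAAA) lay in 1 of 6, that of Rpgrip1, beside 12.97% of all windows. This Rpgrip1 window (chr14:52110653-52110902, plus strand) also lies inside the annotated span of its gene, which begins at 52104241. The start used is therefore internal, and the match begins 135 bases before it. The core of the Rbpj site (GTGGGAA) lay in 0 of 6, beside 5.41% of all windows. A match or its absence describes these letters only.

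The 8 sums of UMIs, 1 per mouse and class, held 483483 to 734251 UMIs for the high-score cells and 5246504 to 9583348 for the other cells. Each barcode appeared once in the matrix, and the kept cells hold no barcode that the authors called a hashtag doublet; no other doublet caller was run. Because Notch2, Kdm6b and the other markers were named with results of all genes in these cells known, every gene of these cells had a part in the choice. Differences between the high-score and the other cells are therefore given as a description, without p-values, and a gene is said to pass where the fit over all genes, described in the processing notes, gave an adjusted p of at most 0.05. Comparisons between genotypes and of the surface tags were not used by the rule, and their tests are given.

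The score of the high-score cells ran from 6.21 to 26.8 with a median of 8.62, and that of the other cells from 0 to 6.21 with a median of 1.22. The last cell inside had 12 marker UMIs among 19314, and the first cell outside had 8 among 12885, so the class is a range of a continuous score with no gap at its edge. A median high-score cell held 7 marker UMIs and a median other cell held 1; 1103 other cells held 0. UMIs of at least 3 different markers were present in 257 of the 280 cells (91.8%) and in 376 other cells (11.8%). The 4-marker cell was the most frequent kind, with 82 of 280, and 9 cells held all 7 markers.

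Summed over the high-score cells of each mouse, Notch2 reached a CPM (UMIs of a gene scaled to a total of 1e6 per sum) of 149 and 181 (Helios-deficient) and of 178 and 189 (wild-type), against 20.01 to 22.3 CPM in the other cells. Kdm6b stood at 88.9, 86.8, 91.2 and 87.5 CPM in the same order, against 12.3 to 17.6 CPM. Rpgrip1 had the highest level of the 7, at 236 to 280 CPM against 45.1 to 51.5 CPM. Slc39a1 lay at 136 to 174 CPM, Rbm15 at 73.0 to 101 CPM, Kmt2d at 69.0 to 88.9 CPM and Abhd2 at 49.3 to 83.1 CPM. The rule fixed all of these differences, and the levels of different genes are CPM of UMIs from 3′ ends rather than per length. The 7 markers together made up 876 to 918 CPM of the high-score cells and 144 to 150 CPM of the other cells.

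To see whether each marker followed the other 6, the 280 cells were chosen again 7 times, each time without 1 marker. Notch2, absent from its own choice, stood at 129, 134, 134 and 128 CPM in the chosen cells of the 4 mice (Helios-deficient mice first) and at 23.0, 23.1, 24.5 and 27.7 CPM in the other cells. All chosen sums lay above all others, and the log2 difference was 2.40 (SE 0.12), a 5.27-fold level. Kdm6b stood at 71.3, 53.9, 64.7 and 59.5 CPM against 17.9, 14.3, 17.8 and 19.9 CPM, a log2 difference of 1.82 (SE 0.15). The zinc importer gene Slc39a1 differed most, with 127 ± 18.8 CPM (SD, n = 4) in the chosen cells against 19.97 ± 3.48 CPM, a log2 difference of 2.66 (SE 0.12). Abhd2 (2.31, SE 0.16) and Kmt2d (2.01, SE 0.17) followed on the log2 scale. Rbm15 and Rpgrip1 differed least, each by a log2 value of 1.64 (SE 0.15 and 0.10). For each of the 7 markers the chosen and the other sums did not overlap in any of the 4 mice, and each marker passed in its fit and in all 9 alternatives tried for it. Of all genes tested in these 7 fits, 1.57% to 4.25% passed. Of the cells chosen on 6 markers, 79.3% (without Rpgrip1) to 93.9% (without Abhd2) were among the 280 chosen on all 7. The markers had been picked together from these cells, so their moving together describes the cells and is not independent evidence of a cell type.

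**Figure D1:**
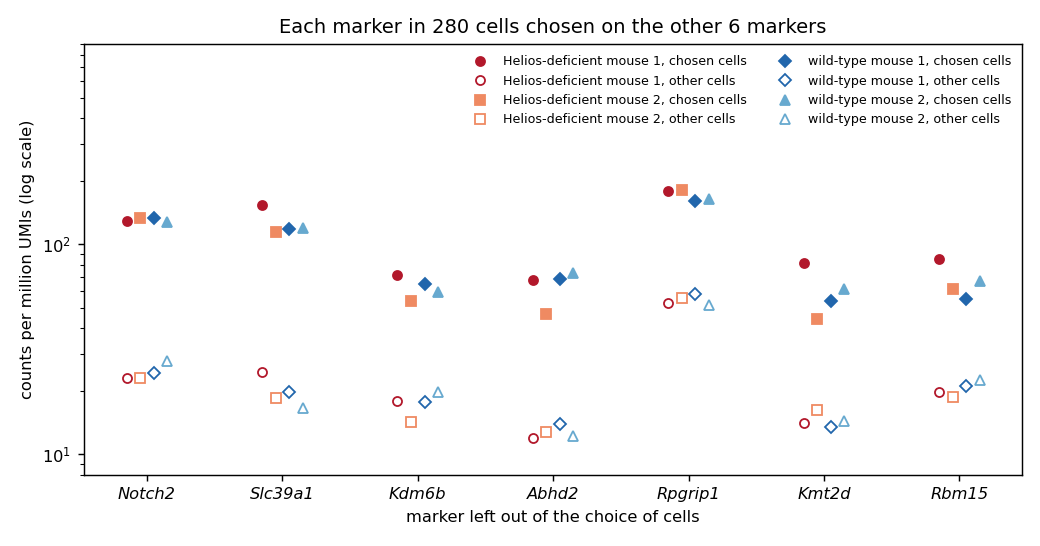
Level of each of the 7 markers in the 280 cells chosen on the other 6 (filled symbols) and in the remaining kept cells (open symbols), 1 symbol per mouse, in CPM on a log axis. For Notch2 the chosen cells of the 4 mice sit at 128 to 134 CPM and the other cells at 23.0 to 27.7 CPM, with no overlap for any marker.

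Outside the 7 markers, the gene that set the high-score cells apart by its amount was Actb, which encodes cytoplasmic beta-actin. High-score cells held 8757 and 7464 CPM of Actb where Helios was missing and 7499 and 7963 CPM in wild-type mice. The other cells of the same mice held 2245, 1997, 2250 and 2168 CPM. The sums did not overlap, and the log2 difference was 1.87 (SE 0.03). Cell by cell, the median high-score cell held 77.0 Actb UMIs per 10000 (10th to 90th percentile 32.1 to 124) and the median other cell 17.6 (9.63 to 39.2). Of the 280 kept cells with the highest Actb level, 181 (64.6%) were high-score cells. Cdk6, a G1 cyclin-dependent kinase that was picked after its values were seen, stood at 840, 578, 661 and 558 CPM in the high-score cells and at 310, 307, 283 and 279 CPM in the others, a log2 difference of 1.15 (SE 0.06).

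The rise of Actb with the score did not begin at the limit. Its mean over mice was 1637 ± 77.7 CPM (SD, n = 4) in cells with a score of 0, 1834 ± 99.4 CPM in cells above 0 and below 2, 2664 ± 181 CPM from 2 to 4, and 4561 ± 473 CPM from 4 to the limit. Within the high-score cells it was 7082 ± 448 CPM in the 140 cells with the lower scores and 8938 ± 628 CPM in the 140 with the higher scores. Every mouse had the same order over these 6 groups of cells. Cdk6 went from 218 ± 9.61 CPM at a score of 0 to 538 ± 58.3 CPM just under the limit and to 673 ± 195 CPM in the highest group, where the 4 mice were spread from 426 to 833 CPM. Cbx3, which encodes a heterochromatin protein 1 family member, went from 178 ± 5.10 to 439 ± 48.9 CPM over the same groups and stood at 646 ± 65.9 and 589 ± 70.0 CPM in the 2 groups of high-score cells.

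**Figure D2:**
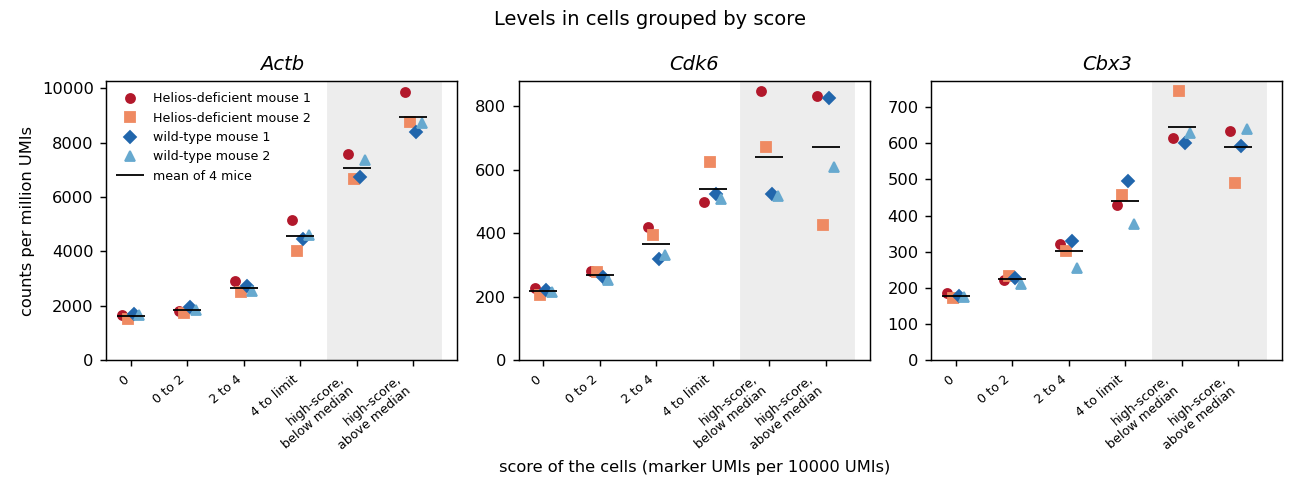
Actb, Cdk6 and Cbx3 in cells grouped by their score (horizontal axis, marker UMIs per 10000 UMIs), as CPM on a linear axis, 1 symbol per mouse and a bar for the mean of 4 mice; grey marks the high-score cells, split at their median score. Mean Actb climbs from 1637 CPM at a score of 0 to 4561 CPM just under the limit and 8938 CPM in the highest group.

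Over all genes, 227 of 10654 tested genes passed between the high-score and the other cells (2.13%), 144 of them higher (1.35%) and 83 lower (0.779%) in the high-score cells. The median log2 difference of all tested genes was -0.001. Of the 227 genes, 165 had sums that did not overlap, beside 7.33% of all tested genes. These shares describe cells chosen with the genes in view, and nothing is read from them.

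Among the passing genes with a mean of at least 20 CPM that were higher in all 4 mice, the 15 with the largest difference belong to several kinds. Regulators of transcription and chromatin were Ncoa3, a nuclear receptor coactivator, Zscan26, a zinc finger protein, Nfia, a nuclear factor I family member, Supt16, a subunit of the FACT histone chaperone, and Cbx3. Ncoa3 stood at 41.4, 45.4, 44.9 and 68.7 CPM in the high-score cells against 14.5, 12.9, 14.3 and 12.4 CPM, a log2 difference of 1.90 (SE 0.18). Zscan26 followed with 1.88 (SE 0.18) and Nfia, a scarce transcript at 32.0 ± 12.1 CPM, with 1.67 (SE 0.22). Supt16 stood at 219, 229, 212 and 209 CPM against 88.4, 85.4, 79.9 and 76.4 CPM, a log2 difference of 1.40 (SE 0.08). Its annotated span on chromosome 14 (52160419 to 52197239) overlaps that of the marker Rpgrip1 (52104241 to 52161339), and whether the counting used strand is not given in the sources used here, so the split of reads between these neighbours is uncertain.

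Genes of RNA turnover and translation formed a second kind. Marf1, an RNA-binding nuclease, stood at 147, 94.7, 128 and 127 CPM against 36.6, 44.5, 40.4 and 46.9 CPM, a log2 difference of 1.55 (SE 0.11). Pan3, a subunit of a poly(A) tail deadenylase, stood at 123 ± 18.1 CPM against 44.0 ± 2.96 CPM (1.502, SE 0.11), and Paip1, which binds the poly(A)-binding protein, at 77.9 ± 6.41 CPM against 27.2 ± 3.52 CPM (1.53, SE 0.14). Metabolic and membrane genes were Acot2, a mitochondrial acyl-CoA thioesterase (1.73, SE 0.17), Insig1, which holds back sterol synthesis (1.54, SE 0.14), Pfas, an enzyme of purine synthesis (1.36, SE 0.14), and Lrrc8a, a volume-regulated anion channel subunit (1.51, SE 0.18). The last members were the kinase Bmp2k (1.35, SE 0.20) and the predicted gene Gm32036 (1.77, SE 0.18). None of the 15 genes had overlapping sums, beside 7.33% of all tested genes without overlap. The 15 were picked as passing and higher in all 4 mice, which favours sums without overlap. Pfas lay 390048 bases from the marker Kdm6b on chromosome 11. The high-score cells were shallower than the others (below), and when both classes were limited to cells of like depth, an alternative added after the data were seen, the 15 log2 differences ran from 1.28 (Bmp2k) to 1.87 (Zscan26), with Actb at 1.82 (SE 0.03).

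**Figure D3:**
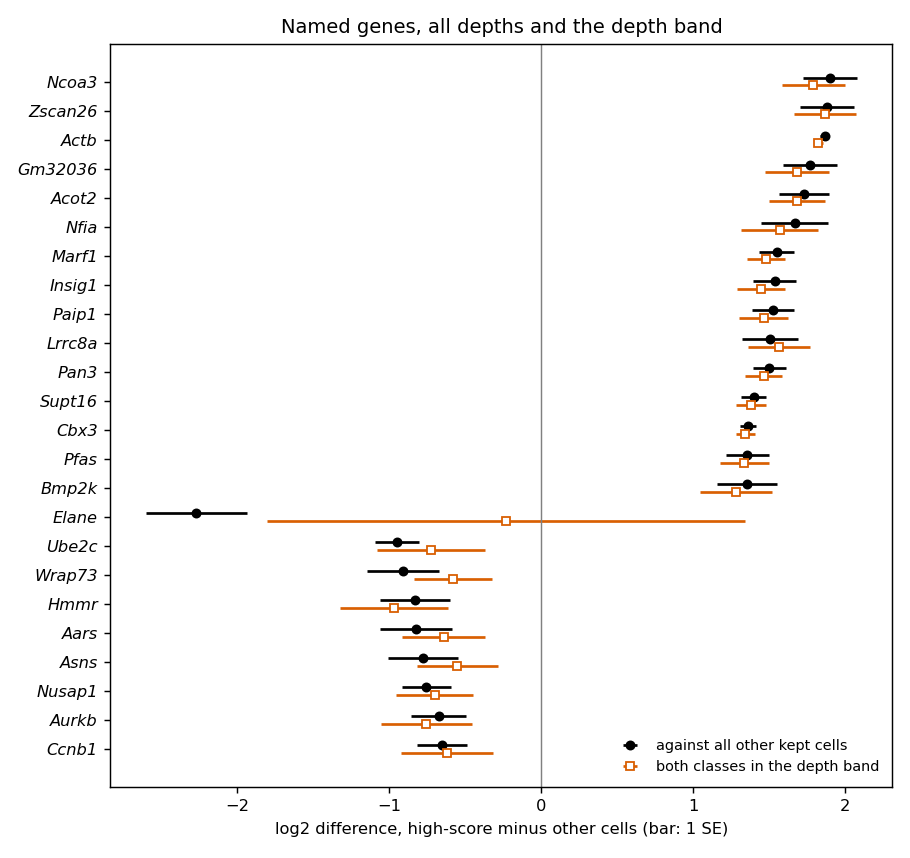
Log2 difference between the high-score and the other cells for the 15 largest passing rises and 9 of the 10 largest passing falls (vertical axis, genes), with bars of 1 SE; filled circles use all kept cells and open squares only cells of both classes with total UMIs in the depth band. The 15 higher genes lie at 1.28 or above in both, whereas Elane moves from -2.27 to -0.23 with an SE of 1.57.

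The 10 largest passing falls were smaller or less steady. Elane, the neutrophil elastase gene of granulocyte-monocyte progenitors, stood at 64.1, 9.86, 5.45 and 4.69 CPM in the high-score cells and at 175, 143, 60.3 and 6.603 CPM in the other cells. It was lower in each of the 4 mice, yet the classes overlapped because the mice differed more than the classes. The log2 difference of -2.27 (SE 0.33) became -0.23 (SE 1.57) in the depth band. Several of the others act in mitosis, among them the anaphase ubiquitin-conjugating enzyme Ube2c (-0.95), the spindle proteins Hmmr (-0.83) and Nusap1 (-0.76), the kinase Aurkb (-0.68) and cyclin B1, Ccnb1 (-0.65). Ube2c stood at 57.9, 55.2, 69.5 and 29.7 CPM in the high-score cells and at 121, 117, 80.6 and 103 CPM in the others, without overlap. The centrosomal gene Wrap73 (-0.91), the alanyl-tRNA synthetase gene Aars (-0.82) and the asparagine synthetase gene Asns (-0.78) were also in the group. With both classes in the depth band 0 of these 10 genes passed, and 8 of the 10, all but Elane and Ube2c, lost their call when some 1 mouse was left out.

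Cell cycle genes lay lower as lists when all kept cells were compared. The counts stand beside 0.779% of all tested genes that passed as lower and 1.35% as higher. Of 30 G2 and M phase genes tested, 9 passed as lower and 0 as higher, with 1 of 30 above 0 and a median log2 difference of -0.49. Their summed level was 745 to 1487 CPM in the high-score cells and 1280 to 1681 CPM in the others, and it was lower in all 4 mice. Top2a, which untangles chromosomes, stood at 139 ± 26.5 CPM against 181 ± 16.9 CPM (-0.38, SE 0.08), and the mitotic kinase gene Aurka at 11.8 ± 3.62 CPM against 26.7 ± 3.68 CPM (-1.20, SE 0.25). Of 30 S phase genes, 4 passed as lower and 0 as higher, with a median of -0.25. These were Tipin (-0.40) and Rpa2 (-0.37) of the replication fork, the thymidylate synthase gene Tyms (-0.38) and the helicase subunit gene Mcm5 (-0.34). When some 1 mouse was left out, 7 of the 9 G2 and M phase calls were lost, all but Ube2c and Aurka. So were 3 of the 4 S phase calls, all but Tipin. Depth differed between the classes, and the direction of the G2 and M phase list depended on how depth was limited. With only the other cells in the depth band its median was 0.27, with 24 of 30 genes above 0 and Cenpf (0.73) and Birc5, named after their values were seen, passing as higher; the S phase median was -0.13 with 0 passing. With both classes in the band, the alternative added later, the G2 and M phase median was -0.46 with 0 of 30 genes passing, and the S phase median -0.23 with 1 lower. With all cells thinned to 3000 UMIs the medians were -0.61 (27 genes tested, 1 lower) and -0.22 (29 tested, 0 passing).

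**Figure D4:**
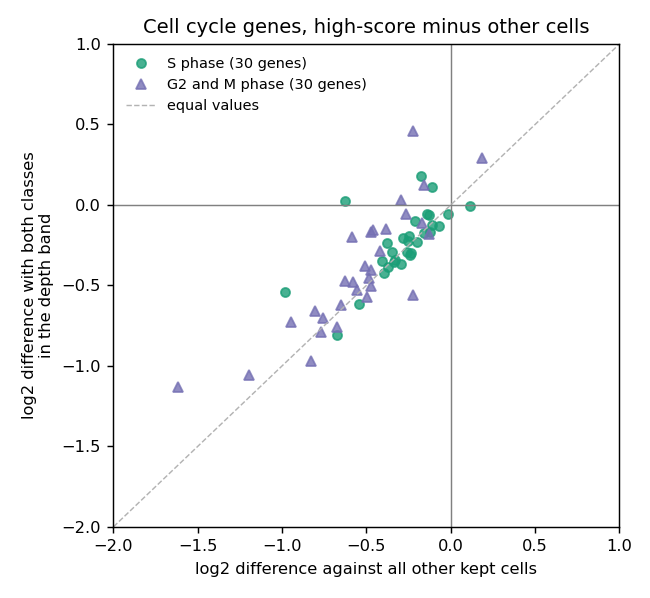
Log2 difference between the high-score and the other cells for 30 S phase (circles) and 30 G2 and M phase genes (triangles), with all kept cells on the horizontal axis and with both classes in the depth band on the vertical axis; the dashed line marks equal values. Most genes lie below 0 on both axes, and 3 genes of each list change from below to above 0.

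Of the other genes on the Notch lists, 2 passed, both higher, beside 2.13% of all tested genes. Among receptors, Notch1 stood at 17.0 ± 5.49 CPM in the high-score cells and 18.1 ± 2.59 CPM in the others (log2 -0.09, SE 0.24), and 0 of 1 receptors tested passed. Of the ligands, only Jag2 was high enough to be tested (2.81 ± 0.996 against 2.94 ± 0.63 CPM), and Dll1, Dll3 and Dll4 had 0 UMIs in the high-score cells. Of 17 genes for processing and sugar transfer, 1 passed: Furin, the protease that cuts Notch receptors on their way to the surface, stood at 24.5 ± 2.98 CPM against 11.8 ± 1.61 CPM (1.02, SE 0.23), a call lost in the depth band. Of 11 genes of the transcription complex and its corepressors, 0 passed; Maml2, a coactivator, stood at 13.02 ± 6.06 CPM against 6.84 ± 1.14 CPM. Of 7 genes tested from the list of target genes, 1 passed, the ubiquitin ligase gene Dtx3l (45.2 ± 6.77 against 27.4 ± 1.87 CPM, log2 0.70, SE 0.16). Its call was lost in the depth band and without Helios-deficient mouse 1 or wild-type mouse 1. Dtx3l is counted as a target by that list only, and whether Notch acts on it in these cells was not tested. The classic target Hes1 did not pass, with 8.16 ± 9.56 CPM against 3.07 ± 1.39 CPM, and Hey1, Hey2, Heyl, Dtx1 and Il2ra had 0 UMIs in the high-score cells.

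Partners of the chromatin markers were read from lists in the same way, beside 1.35% of all tested genes that passed as higher and 0.779% as lower. Of 11 genes for lysine 27 methylation and its removal, 0 passed, with a median of -0.02; Kdm6a, the other H3K27 demethylase, stood at 21.4 ± 7.72 CPM against 18.0 ± 2.38 CPM. Of 18 genes for lysine 4 methylation and its removal, 0 passed, with a median of -0.07. The demethylase genes Kdm5c (29.3 ± 3.94 against 19.6 ± 2.30 CPM, log2 0.56, SE 0.20) and Kdm5b (59.9 ± 8.25 against 43.8 ± 5.01 CPM, log2 0.44, SE 0.14) did not pass. Both were above the other cells in all 4 mice. Their sums did not overlap, which held for 7.33% of all tested genes. Of the m6A list, 3 of 14 genes passed, all higher. Wtap, a subunit of the methyltransferase complex, stood at 162 ± 11.2 CPM against 87.7 ± 4.65 CPM (0.87, SE 0.09). Alkbh5, which removes m6A, stood at 86.4 ± 2.94 CPM against 42.1 ± 1.99 CPM (1.04, SE 0.12). Ythdf2, a reader of the mark that speeds decay of RNA, stood at 153 ± 7.44 CPM against 96.7 ± 3.89 CPM (0.66, SE 0.09). The list had a median of 0.08, with 9 of 14 genes above 0; Ythdf3, another reader, did not pass (0.35, SE 0.23). The same 3 genes passed with both classes in the depth band, and Wtap alone passed with all cells thinned to 3000 UMIs. Of 17 other zinc transporters and metallothionein genes, 1 passed, Mt2, at 0 to 1.97 CPM in the high-score cells against 2.50 to 14.5 CPM. Mt2 had 1 UMI in all high-score cells together. Its call was not kept with both classes in the depth band, with DESeq2 or with the top 400 cells.

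Signs of stress, damage or nuclear RNA were looked for in further lists. Over all tested genes, 1.35% passed as higher and 0.779% as lower. Of 25 transcripts known to stay in the nucleus or to keep introns, 2 passed as higher, Srrm2 (439 ± 23.6 against 332 ± 12.7 CPM; 0.41, SE 0.05) and Malat1 (10952 ± 1045 against 10025 ± 1084 CPM; 0.13, SE 0.02), and Srsf7 passed as lower (-0.19, SE 0.06). The 13 mitochondrially encoded genes summed to 24440 to 25707 CPM against 24380 to 25136 CPM, with 0 passing. Of 16 immediate early genes, 15 NF-kB targets, 23 interferon response genes and 10 p53 targets, 0 passed, with medians of 0.17, 0.13, -0.06 and -0.03. Of 9 heat shock genes, 4 passed as lower by 0.12 to 0.19 on the log2 scale: Hsp90aa1, Hsp90ab1, Hspa8 and Hspe1. Ribosomal protein genes (40 tested, 1 lower, Rps2, median -0.01) stayed close to 0. Nuclear genes of oxidative phosphorylation lay slightly lower (25 tested, 2 lower, Cox5a and Sdhb, median -0.08), with 1 of 25 above 0. Their summed level was 11266 to 11963 CPM against 11710 to 12357 CPM, lower in all 4 mice. Of these 10 calls, Srrm2 alone was kept in the depth band.

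Lineage markers did not give the cells a lineage. Their counts stand beside 1.35% of all tested genes that passed as higher and 0.779% as lower. Of 26 stem cell genes, 1 passed as higher, Ifitm1 (0.15, SE 0.04, not kept in the depth band), with a list median of 0.07. Ifitm1 was higher in 3 of 4 mice, and its call was lost without some 1 mouse. Of the 26 genes, 19 lay above 0, beside 49.9% of all tested genes. The summed list was 2877 to 3814 CPM against 2709 to 3406 CPM, higher in all 4 mice. Procr, the EPCR gene, stood at 48.9 ± 17.8 CPM against 37.9 ± 3.31 CPM and did not pass. Of 10 lymphoid-primed genes, Wfdc17 (379 ± 136 against 272 ± 48.9 CPM; 0.47, SE 0.08) and Flt3 passed as higher, while Dntt, which adds nucleotides at antigen receptor joints, stood at 202 ± 58.6 against 245 ± 48.3 CPM. Flt3 stood at 108, 150, 159 and 208 CPM against 98.4, 107, 157 and 144 CPM (0.29, SE 0.09). Neither call was kept in the depth band, and that of Flt3 was lost without Helios-deficient mouse 1, Helios-deficient mouse 2 or wild-type mouse 2. Of 11 granulocyte-monocyte genes 1 passed, Elane, lower as above; of 12 megakaryocyte genes 0 passed, with a median of -0.51. Of 10 erythroid genes, Hba-a1, Hbb-bs and Klf1 passed as lower, each at 6.25 CPM or less in the high-score cells of every mouse. Each of these calls was lost without some 1 mouse. The beta-globin gene Hbb-bt of the same list did not pass. It stood at 43.4, 29.6, 124 and 85.9 CPM against 52.8, 33.1, 74.8 and 87.0 CPM, higher only in wild-type mouse 1. The summed erythroid list was 1150 to 1487 CPM against 1281 to 1524 CPM in the other cells. B cell genes Cd79a, Ms4a1, Ebf1, Pax5 and Vpreb3 had 0 UMIs in the high-score cells, whereas Cd79b, a subunit of the B cell receptor, stood at 51.3 ± 7.76 against 42.8 ± 4.46 CPM. Igkc, the kappa light chain constant gene, stood at 24.99 to 47.3 CPM, against 33.0 and 34.8 CPM in the other cells of Helios-deficient mouse 1 and wild-type mouse 2 and 1023 and 4346 CPM in those of the remaining mice; neither passed. Of the T and NK cell list, Cd3e, Cd3g and Gzma had 0 UMIs in the high-score cells, Nkg7 of cytotoxic granules stood at 231 ± 29.5 against 252 ± 20.2 CPM and Trbc2 at 5.07 ± 6.02 against 3.38 ± 1.34 CPM, and neither of these passed. Trbc1 passed with a log2 value of 1.88 (SE 0.42). Yet it was higher in 2 and lower in 2 mice, with 0 CPM in the high-score cells of both Helios-deficient mice. Its call was kept with both classes in the depth band. It was lost with only the other cells in that band, with all cells thinned to 3000 UMIs and with DESeq2. The call was also lost with no replicate block, with the top 400 cells and without either wild-type mouse. Of the stroma and endothelium list, Cxcl12, Lepr, Cdh5, Col1a1 and Sparc had 0 UMIs, while Pecam1 stood at 39.9 ± 12.7 against 36.4 ± 5.04 CPM and Emcn at 28.7 ± 10.7 against 25.5 ± 2.30 CPM, neither of which passed. The part of such cells in the differences above was not tested. The summed neutrophil list was 0 to 5.45 CPM, the macrophage list 10.3 to 53.1 CPM and the mast cell list 9.86 to 43.6 CPM, against 3.66 to 18.3, 30.7 to 62.9 and 28.6 to 41.4 CPM in the other cells. Ikzf2 itself stood at 82.7, 92.7, 89.9 and 78.1 CPM against 72.8, 82.1, 69.1 and 66.8 CPM and did not pass (0.25, SE 0.11), and neither did Cd48 (-0.15), Slamf1 (0.04) or Itga2b (-0.36).

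High-score cells were shallower than the others in every mouse. Their median total was 7603, 7299, 7040 and 6760 UMIs, against 8823, 8631, 7649 and 7692 UMIs, a mean within-mouse difference of -1023 ± 324 UMIs (SD, n = 4); total UMIs are the denominator of the score, so no test is given. The number of genes with a UMI was lower by 189 ± 59.7 per cell at full depth in all 4 mice. With each cell thinned to 3000 UMIs, which leaves out 5 high-score and 12 other cells, the medians were 1395 and 1394 genes, a difference of 1 ± 10.2. The mitochondrial share was 2.55% in the high-score cells and 2.51% in the others, higher in 3 of 4 mice. When all cells were thinned to 3000 UMIs and scored again, 169 of the 280 cells (60.4%) were selected again.

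The surface tags took no part in the score. Median tag UMIs per cell were lower in the high-score cells of all 4 mice, at 260 against 271 (-11.1 ± 9.05, SD, n = 4; exact sign-flip permutation p = 0.125, the smallest that 4 mice allow), as was CD48 at 102 against 111 UMIs (-9.13 ± 3.17; exact p = 0.125). Per 10000 tag UMIs the median cell held 3048 CD150 in the high-score cells against 2980 in the others (difference 67.1 ± 53.8), 4057 CD48 against 4180 (-123 ± 203), 1493 CD135 against 1400 (92.7 ± 69.0) and 1239 CD41 against 1243 (-4.08 ± 64.0). CD150 and CD135 were each higher in 3 of 4 mice (exact sign-flip permutation p = 0.25 for each), CD48 was lower in 3 of 4 (exact p = 0.375) and CD41 was lower in 2 of 4 (exact p = 1). With 13 measures compared and n = 4, the smallest adjusted value is 0.406, so no measure could pass.

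In a nearest-neighbour graph of all kept cells built without the 7 markers, 32.2% of the 20 neighbours of a high-score cell were high-score cells, against 3.54% for the other cells and 8.07% overall. With Actb left out as well, the shares were 8% and 7.29%. Of 8 clusters of the graph that kept Actb, the one led by Actb, Cdk6, Marf1, Pim1, Gm2a and Cbx3 held 134 of the 280 high-score cells (47.9%), which made up 54.5% of its 246 cells. The rest were spread, with 46 in the cluster led by Igkc and Igha, 33 in that led by Dntt and Wfdc17, 30 in that led by Elane and Ctsg, and 7 of 775 cells in that led by Ccl5 and Ifit1. These shares are a description of cells chosen from the same matrix.

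The share of high-score cells was compared between genotypes to ask whether loss of Helios changed their frequency. They made up 56 of 557 kept cells in Helios-deficient mouse 1 (10.1%, 95% Wilson interval 7.82 to 12.8) and 55 of 824 in Helios-deficient mouse 2 (6.67%, 5.16 to 8.59). In wild-type mouse 1 they were 89 of 1175 (7.57%, 6.20 to 9.23) and in wild-type mouse 2 80 of 914 (8.75%, 7.09 to 10.8). The Helios-deficient mice thus lay on either side of both wild-type mice. The means were 8.36% ± 2.39 and 8.16% ± 0.83 (SD, n = 2 each), a difference of 0.20 percentage points (exact two-sided permutation p = 1; 2 against 2 mice cannot go below 0.333). The Wilson intervals cover counting error only. With all cells thinned to 3000 UMIs and scored again, the means were 8.61% ± 0.51 in Helios-deficient and 7.74% ± 0.12 in wild-type mice. In that setting the difference was 0.87 percentage points (exact two-sided permutation p = 0.333), so the order of the mice differed from that at full depth. Thinning also changed which cells were chosen, and 169 of the high-score cells (60.4%) were selected again. The parts of depth and of this change of cells in the order of the mice were not tested.

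**Figure D5:**
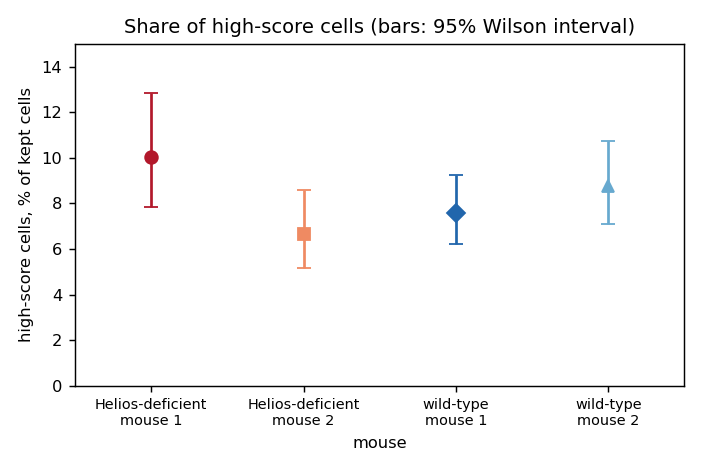
Share of kept cells that are high-score cells (vertical axis, percent) in each of the 4 mice, with bars for the 95% Wilson interval. The 2 Helios-deficient mice stand at 10.1% and 6.67%, above and below the wild-type mice at 7.57% and 8.75%.

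Over all kept cells, which the rule does not divide, none of the 7 markers differed between genotypes by edgeR's quasi-likelihood test. Notch2 had 30.9 and 30.1 CPM without Helios, beside 32.5 and 35.0 CPM in wild-type mice (log2 -0.14, SE 0.11, adjusted p = 0.709). Kdm6b stood at 22.9 and 16.7 against 21.0 and 23.0 CPM (-0.18, SE 0.14, edgeR adjusted p = 0.747). The other markers lay between -0.15 (Abhd2) and 0.15 (Slc39a1), and 0 of 7 passed in any of 6 alternatives, whereas 0.794% of 11592 genes passed in this comparison. Within the high-score cells Actb was 8110 ± 915 CPM in Helios-deficient and 7731 ± 328 CPM in wild-type mice (log2 0.07, SE 0.07, edgeR adjusted p = 0.957), and Ikzf2 RNA was 82.7 and 92.7 CPM against 89.9 and 78.1 CPM, so its 3′ counts did not separate the genotypes; which part of the gene the allele removes is not given in the sources used here.

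Within the high-score cells, 12 of 6423 tested genes differed between genotypes (0.187%) by edgeR's quasi-likelihood test, against 0.845% of 11483 genes in the other cells, whose sums were larger. Higher in Helios-deficient cells were 6 genes. Ifitm1 and Ifitm3, interferon-induced membrane proteins, rose: Ifitm1 stood at 1874 and 1562 CPM against 1057 and 1037 CPM (log2 0.72, SE 0.08, edgeR adjusted p = 1.6e-08), and Ifitm3 at 1400 and 1288 against 940 and 901 CPM (0.55, SE 0.09, edgeR adjusted p = 3.9e-05). Iigp1, an interferon-inducible GTPase, stood at 74.5 and 57.2 against 21.8 and 12.5 CPM (1.91, SE 0.34, edgeR adjusted p = 4.6e-04). Prtn3, the proteinase 3 gene of azurophil granules, stood at 883 and 771 against 633 and 595 CPM (0.43, SE 0.10, edgeR adjusted p = 0.016). The mitotic gene Birc5 (1.08, SE 0.22) and the chromatin protein gene Hmgb2 (0.55, SE 0.10) were the others; both lost their call without Helios-deficient mouse 2, and Birc5 also without wild-type mouse 2. Prtn3 lost its call without Helios-deficient mouse 1 and without either wild-type mouse.

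Lower in Helios-deficient high-score cells were 6 genes. Ctse, which encodes the aspartic protease cathepsin E, had 1 UMI in each Helios-deficient mouse and 59 and 41 UMIs in the wild-type mice, or 2.07 and 1.97 CPM against 80.4 and 64.0 CPM (edgeR adjusted p = 9.8e-10). Acadl, a mitochondrial acyl-CoA dehydrogenase gene, stood at 35.2 and 41.4 against 101 and 79.7 CPM (-1.23, SE 0.26, edgeR adjusted p = 0.0093). The beta-globin gene Hbb-bt stood at 43.4 and 29.6 against 124 and 85.9 CPM (-1.53, SE 0.26), the predicted gene Gm47283 at 97.2 and 98.6 against 208 and 176 CPM (-0.97, SE 0.17) and the transporter gene Slc16a11 at 2.07 and 11.8 against 36.8 and 32.8 CPM (-2.27, SE 0.50). Trbc1, a T cell receptor constant gene, had 0 UMIs in both Helios-deficient mice and 13 and 21 UMIs in the wild-type mice; with a floor of 3 counts over the group it was at least 8.17-fold lower. The calls of Acadl, Hbb-bt and Trbc1 were lost without wild-type mouse 1, that of Acadl also without Helios-deficient mouse 1, and that of Slc16a11 without any 1 of Helios-deficient mouse 1, wild-type mouse 1 or wild-type mouse 2. Ctse, Ifitm1 and Ifitm3 kept their call in all 10 alternatives, whereas DESeq2 called 3 genes in all.

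The difference between genotypes was then compared with that in the other cells by an interaction term in edgeR, which passed for 6 of 10654 genes (0.0563%). Iigp1 was the best measured of them: in the other cells it stood at 34.7 and 37.8 CPM in Helios-deficient and 39.1 and 21.5 CPM in wild-type mice (log2 0.24, SE 0.38), so that the difference was larger in the high-score cells by 1.68 (SE 0.35, edgeR adjusted p = 0.0037); the call was lost without Helios-deficient mouse 1 or wild-type mouse 1, with log2 values of 1.43 to 1.93 over 6 alternatives. For Ctse, Acadl, Gm47283, Ifitm1 and Ifitm3 the interaction did not pass (log2 -2.37, -0.15, -0.01, 0.12 and 0.11). The other 5 genes, Igha, Ccl5, Mt1, Car1 and Ly6c2, rested on at most 29 UMIs in the high-score cells of any mouse. DESeq2 passed 0 genes in this comparison, with 55 at an unadjusted p under 0.05 against 527 by edgeR.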

How the data were processed

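Droplet single-cell RNA-seq (10x 3′ v2 chemistry, per the labels' protocols) of LSK cells from 4 pooled mice gave 1 deposited matrix of raw UMI counts over 4108 barcodes, with 31053 genes beside the antibody tags and the hashtags. The submitters' processing notes name Cell Ranger, Seurat 3.0.0 and build mm10, and the matrix was written by software version 3.0.2, per the file headers; aligner settings, strand use and the filter on cells are not given in the sources used here. The authors' deposited list of kept cells and their hashtag calls were used as they are, and the hashtag labels gave the mouse and genotype. The members, markers, lists and tests were chosen with earlier results of these data known.

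UMIs were summed per mouse and class. Genes were tested with edgeR 4.0.16 (quasi-likelihood, robust, TMM, filterByExpr) in R 4.3.3, with the mouse as a block between classes and without it between genotypes; the 7 markers stayed in library totals and out of the tested rows, and p-values were adjusted by Benjamini-Hochberg over all tested genes at 0.05. Standard errors are the log2 difference divided by the square root of the F statistic. Alternatives were DESeq2 1.42.0, other scaling, no low-count filter, no block, the top 200 or 400 cells, cells thinned to 3000 UMIs, cells in a depth band, cells with at least 3 markers and each mouse left out; their effect is given in the closing section. The depth band runs from 4365 to 14759 total UMIs, the 10th to 90th percentile of the high-score cells, and holds 224 high-score and 2652 other cells. Shares and tag measures were compared by exact permutation over mice. The graph used 30 components of Pearson residuals of 1500 variable genes and 20 neighbours (scanpy 1.11.5), with Leiden clusters at resolution 0.5. Named genes are the markers, Ikzf2 and the tag genes, the 15 largest rises and 10 largest falls that passed in the same direction in 4 of 4 mice at a mean of at least 20 CPM, up to 4 members of each list with the smallest p, and up to 8 genes in each direction between genotypes; a few of these genes are not reported here. Where nothing says how the 2 mice of a genotype were kept, p-values measure only the spread between these mice.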

Additional observations from a re-analysis of the deposited data

Results flagged for a closer look

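Barcodes that the authors did not keep also reached the score of the high-score cells. Among the left-out barcodes assigned to a single mouse with a mitochondrial share of 5% or more, 72 (23.7%, 95% Wilson interval 19.3 to 28.8) had a score of at least 6.21, against 8.07% of the kept cells. Taken whole, at any score, the left-out barcodes of this kind were shallow, with a median of 1547 UMIs. Their Actb level, also at any score, was 1970 CPM, against 2574 CPM over all kept cells. The Actb level of the 72 alone was not computed. Among hashtag doublets the share was 18 of 231 (7.79%, 4.99 to 12.0), and among other left-out single-mouse barcodes it was 5 of 68 (7.35%, 3.18 to 16.1). The part of depth in the share of the first kind was not tested.

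The difference between genotypes differed between the high-score and the other cells by an edgeR interaction test for 6 genes, given as the log2 difference of Helios-deficient against wild-type mice in the high-score cells minus that in the other cells. Iigp1 had 1.68, with 36 and 29 UMIs against 16 and 8 in the high-score cells. Ccl5 had -3.79, with 2 and 1 UMIs in the Helios-deficient and 9 and 24 in the wild-type high-score cells. Mt1 had -3.65, with 0 and 4 UMIs against 15 and 20, and Car1 had -3.46, with 2 and 2 against 12 and 11. Igha had -7.61, with 1 to 4 UMIs in the high-score cells of any mouse, and in the other cells it stood at 917 CPM in Helios-deficient mouse 2 and at 2.86 to 4.70 CPM in the other 3 mice. Ly6c2 had 9.70, with 2 and 29 UMIs against 0 and 0, and in the other cells it stood at 9.32 to 82.2 CPM. The fitted values of genes with a 0 depend on the prior count and are no bounds. Mt1 kept its call in 5 of 6 alternatives, Igha in 4, and Ccl5, Car1, Iigp1 and Ly6c2 in 3; DESeq2 called none of them. Without Helios-deficient mouse 2 the value of Igha was 0.18 and did not pass.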

How the results depend on the processing

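Between the high-score and the other cells, 227 genes passed, 144 higher and 83 lower. The count was 108 with DESeq2 (96 higher, 12 lower), 122 with no replicate block (113 and 9), 140 with only the other cells in the depth band (130 and 10), 117 with both classes in the depth band (102 and 15; added after seeing the data) and 47 with all cells thinned to 3000 UMIs (33 and 14), which leaves fewer UMIs. It was 273 with no low-count filter (142 and 131), 253 with the top 200 cells (129 and 124) and 261 with the top 400 (156 and 105). Leaving out each mouse in turn gave 170 to 190. All 15 named higher genes kept their direction in each of 240 alternative fits and lost their call in 2, Nfia and Bmp2k with thinned cells. The 10 named lower genes kept direction and call in 81 of 160, lost the call in 75 and changed direction in 4, all with only the other cells in the depth band: Ube2c 0.20, Nusap1 0.19, Aurkb 0.38 and Ccnb1 0.31. That alternative takes the shallowest and the deepest cells out of one class alone, and its part in the change of direction was not tested. With both classes in the band these 4 genes lay between -0.76 and -0.62. The median of the G2 and M phase list was 0.27 with only the other cells in the band and -0.46 with both classes. Each left-out marker passed in all alternatives. Within the high-score cells 12 genes passed between genotypes, against 3 with DESeq2, 19 with no low-count filter, 19 with the top 400 cells and 12 to 27 with each mouse left out. The interaction passed for 6 genes, against 0 with DESeq2 and 2 to 10 with each mouse left out. The genotype difference in the share of high-score cells ran from -1.49 to 1.89 percentage points over all alternatives, and both ends came from leaving out 1 Helios-deficient mouse. No paired analysis was possible between genotypes because the mice share no number or litter in the labels. High-score sums hold at most 734251 UMIs per mouse, which limits genotype comparisons of scarce genes.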
